A study of Mus musculus with 49 samples.

Results

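The reactive astrocyte genes described here are Gfap, Vim, Serpina3n, Lcn2, Osmr, Cd44, Timp1, Steap4, Aqp4 and Stat3, 10 of the 45252 genes in the count table, taken by symbol. They were followed across 49 mice, 1 cerebral cortex library per mouse, in 4 groups. All mice carried the tetO-hTDP43∆NLS allele, were of mixed C57BL/6J x C3H/HeJ strain, were treated from 8 weeks of age, lost doxycycline from the chow at 25.5 weeks and were sacrificed at 28.5 weeks. The 17 ctrl-PBS mice (10 females, 7 males) were monogenic, with no tTA driver, and received PBS. The bigenic rNLS8 mice also carried NEFH-tTA, so that human TDP-43 lacking the nuclear import signal was expressed after doxycycline removal, under a neurofilament promoter and hence in neurons rather than in astrocytes. Of these, 10 received PBS (TDP-PBS, 4 females and 6 males), 10 received peptides 10 and 12 of TDP-43 (TDP-10+12, 6 females and 4 males) and 12 received peptide 15, which carries the phosphorylated C-terminal serines (TDP-15, 5 females and 7 males). Peptides were given as ovalbumin conjugates at 40 µg, and PBS took the place of the conjugate in the control groups, so that peptide, carrier and treatment cannot be told apart. No group holds bigenic mice kept on doxycycline or monogenic mice that were immunized, and all tissue is from 1 time point, 3 weeks after induction.

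Astrocytes respond to neuronal injury, infection and inflammation with a change of state called reactive astrogliosis. The classical signs are more of the intermediate filament proteins GFAP and vimentin. Secreted proteins (the protease inhibitor encoded by Serpina3n, lipocalin-2, TIMP-1) and surface receptors (the oncostatin M receptor, the hyaluronan receptor CD44) follow, and in many injury models the transcription factor STAT3, which acts downstream of IL-6 family cytokines, is required for the full response. Aquaporin-4, the water channel of astrocyte endfeet, marks astrocytes in the resting state as well. Several of these genes are also used by other cells, Vim by endothelial and mural cells, Cd44 and Stat3 by immune cells and Lcn2 by neutrophils.

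Total counts lay between 17775738 and 21033608 per mouse, and TMM factors between 0.929 and 1.06. Levels are given in CPM, read counts scaled by TMM and library total. Mouse Tardbp, the gene for TDP-43, whose product lowers its own mRNA, fell in all 3 rNLS8 groups, by 0.30 on the log2 scale in TDP-PBS (adjusted p = 1.54e-06, edgeR), 0.24 in TDP-10+12 (adjusted p = 7.99e-05) and 0.27 in TDP-15 (adjusted p = 3.03e-06). The 18 markers of homeostatic astrocytes summed to between 6704 and 8473 CPM in ctrl-PBS and to between 5589 and 8122 CPM in the rNLS8 mice, so astrocyte markers were well detected in every library. One library stood apart: mouse 301 of TDP-10+12 had the highest level of 8 of the 10 genes among the 32 rNLS8 mice. Results that rest on it are given with and without it where both were computed. In bulk tissue, more cells of a type and more RNA per cell cannot be told apart.

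Positions are those of RefSeq on GRCm38.p6. Gfap (chromosome 11, 102887336 to 102897200) and Stat3 (chromosome 11, 100886806 to 100939594) lie on chromosome 11. Vim (13574311 to 13582826), Lcn2 (32384637 to 32387739) and Cd44 (102811141 to 102901669) lie on chromosome 2. Serpina3n is on chromosome 12 (104406646 to 104414334), Osmr on chromosome 15 (6813568 to 6874968), Steap4 on chromosome 5 (7960472 to 7982213), and Timp1 on chromosome X (20870166 to 20874737). Timp1 lies inside the neuronal gene Syn1 on the opposite strand, and Stat3 overlaps Stat5a, also on the opposite strand. The strand setting of the counting is not given in the sources used here, so reads of such pairs may not be fully separated.

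The 250 bases before the start in the RefSeq promoter table were available for 9 of these genes and were searched on both strands for the STAT motif TTCNNNGAA, the AP-1 motif TGANTCA and the NF-kappaB motif, since these factors are active in reactive astrocytes and many of the genes moved together. The promoters of Gfap and Vim are shown because the filament genes are the classical signs of the state, and that of Steap4 because it held the 1 match found. Matches are in capitals. The Gfap sequence is chr11:102897201-102897450 on the minus strand, the Vim sequence chr2:13574061-13574310 on the plus strand and the Steap4 sequence chr5:7960222-7960471 on the plus strand.
Gfap: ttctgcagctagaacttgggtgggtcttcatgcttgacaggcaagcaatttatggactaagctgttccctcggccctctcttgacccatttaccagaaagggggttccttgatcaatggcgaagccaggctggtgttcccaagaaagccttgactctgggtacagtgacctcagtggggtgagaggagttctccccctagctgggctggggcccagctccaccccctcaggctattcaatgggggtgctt
Vim: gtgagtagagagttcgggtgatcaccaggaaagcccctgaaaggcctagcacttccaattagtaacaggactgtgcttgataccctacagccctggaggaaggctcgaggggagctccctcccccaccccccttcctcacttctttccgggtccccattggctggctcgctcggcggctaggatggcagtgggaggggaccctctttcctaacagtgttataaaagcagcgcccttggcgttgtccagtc
Steap4: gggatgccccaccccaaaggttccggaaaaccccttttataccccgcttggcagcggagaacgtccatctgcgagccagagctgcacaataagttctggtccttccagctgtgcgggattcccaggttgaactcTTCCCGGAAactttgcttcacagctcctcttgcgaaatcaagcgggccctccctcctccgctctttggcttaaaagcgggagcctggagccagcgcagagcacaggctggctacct
In the Steap4 window TTCCCGGAA begins 116 bases before the start. None of the other 8 windows held any of the 3 motifs. Of 32851 mouse promoters of the same length, 7.02% held the STAT motif, 6.75% the AP-1 motif and 0.36% the NF-kappaB motif. For Serpina3n, Osmr, Cd44 and Stat3 that start lies inside the gene's full span, so their windows partly or wholly overlap the gene. The windows are short, and motifs farther from the start were not searched.

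Per kilobase of exon (GENCODE M21), Gfap had the highest level of the 10 genes in ctrl-PBS, 29.0 ± 6.41 CPM per kb (SD, n = 17). Aqp4 followed with 12.3 ± 1.87, then Serpina3n with 8.07 ± 1.61, Vim with 6.4 ± 0.80 and Stat3 with 4.62 ± 0.26 CPM per kb. The remaining 5 genes were under 1 CPM per kb: Lcn2 at 0.95 ± 0.98, Cd44 at 0.57 ± 0.14, Timp1 at 0.39 ± 0.29, Osmr at 0.35 ± 0.07 and Steap4 at 0.065 ± 0.048. Lcn2, Cd44, Timp1 and Osmr lie within 1 SD of a neighbour in this order. In TDP-PBS the order at the top changed. Gfap reached 90.3 ± 26.2 CPM per kb (SD, n = 10), Serpina3n 30.3 ± 9.86 and Vim 14.7 ± 4.61, which placed both above Aqp4 at 12.5 ± 2.06 CPM per kb, although Vim and Aqp4 overlapped within 1 SD.

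Each rNLS8 group was compared with ctrl-PBS to ask how the astrocyte genes respond to the transgene with and without immunization. Of the 9 genes that could be tested, 7 rose in TDP-PBS, 7 in TDP-10+12 and 7 in TDP-15, namely Gfap, Vim, Serpina3n, Osmr, Cd44, Timp1 and Stat3 in each case, and 0 fell. Lcn2 and Aqp4 did not pass the test in any group, and Steap4 was too low to be tested. Over all 18220 genes tested, 21.9% were called higher in TDP-PBS, 20.8% in TDP-10+12 and 23.7% in TDP-15 (edgeR's quasi-likelihood test over all genes, two-sided, adjusted p under 0.05). The median log2 fold change of the 9 genes was 1.20, 1.15 and 1.12 in the 3 groups, beside −0.00038, 0.0031 and −0.0015 over all genes. Timp1 passed the filter on low counts through the rNLS8 mice, with only 2 of 17 ctrl-PBS mice at its threshold of 0.501 CPM, so its call is not independent of that filter. The 3 comparisons share the same 17 ctrl-PBS mice. The separation of single mice was also clear: each mouse exceeded the whole control range for 5 of the 9 genes in TDP-PBS (Gfap, Vim, Serpina3n, Cd44, Stat3), against 2.31% of all genes. In TDP-10+12 this held for Vim, Serpina3n and Cd44 (2.23% of all genes) and in TDP-15 for Serpina3n, Cd44 and Stat3 (2.45% of all genes).

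**Figure D1:**
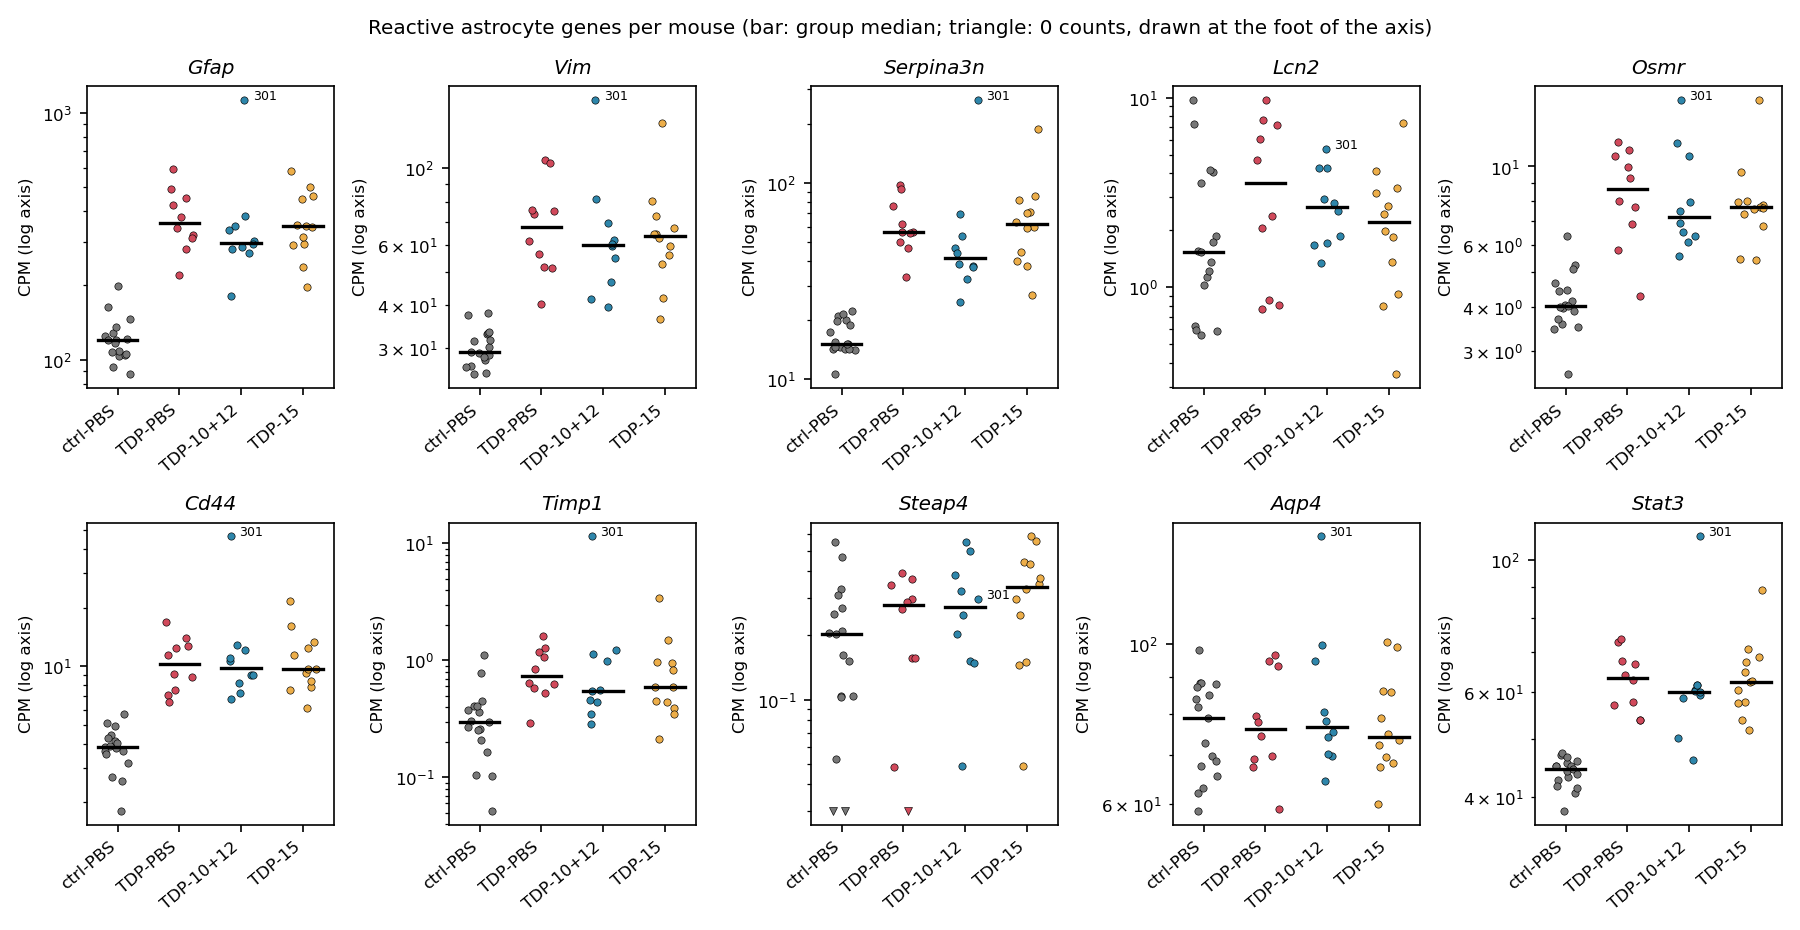
Level of each of the 10 genes in each of the 49 mice, in CPM on a log axis, by group; each point is 1 mouse, bars are group medians and triangles are mice with 0 counts, with mouse 301 of TDP-10+12 named. All 32 rNLS8 mice lie above the control range for Serpina3n and Cd44, while the groups overlap for Lcn2, Steap4 and Aqp4.

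Among the intermediate filament genes, Gfap encodes the main filament protein of astrocytes. Its lowest, median and highest levels were 87.2, 119.8 and 198 CPM in ctrl-PBS, 219.7, 359.9 and 592 CPM in TDP-PBS, 181, 299 and 1132 CPM in TDP-10+12, and 198, 347 and 584 CPM in TDP-15. The lowest mouse of TDP-10+12 and that of TDP-15 lay under the highest ctrl-PBS mouse, and 30 of 32 rNLS8 mice lay above it. Mice of TDP-PBS had 3.11 times the control level (log2 1.64, standard error 0.18, adjusted p = 9.87e-11, edgeR), 3.11 in TDP-10+12 (log2 1.64, adjusted p = 1.15e-10) and 2.98 in TDP-15 (log2 1.57, adjusted p = 7.88e-11). Without mouse 301 the value for TDP-10+12 was 1.29 on the log2 scale. Vim, which encodes vimentin, the partner of GFAP in the filaments of reactive astrocytes, moved less far. It ranged from 25.2 to 38.0 CPM in ctrl-PBS with a median of 29.2, and its medians in TDP-PBS, TDP-10+12 and TDP-15 were 67.7, 60.0 and 63.6 CPM. Here 31 of 32 rNLS8 mice exceeded every ctrl-PBS mouse, the exception being 1 TDP-15 mouse at 36.5 CPM. The log2 fold changes were 1.20 (standard error 0.16, adjusted p = 2.31e-08), 1.15 (adjusted p = 6.46e-08) and 1.12 (adjusted p = 2.87e-08) in the same order. Leaving out mouse 301 brought the TDP-10+12 value to 0.93.

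Of the other filament and linker genes, Plec, which encodes the cytolinker plectin, rose by 0.43 on the log2 scale in TDP-PBS (adjusted p = 3.83e-08), and Des, the desmin gene of muscle and mural cells, by 0.41 (adjusted p = 0.0124). With Gfap and Vim, 4 of the 6 genes of this list rose in TDP-PBS, 4 in TDP-10+12 and 3 in TDP-15, and 0 fell. Over all genes 21.9%, 20.8% and 23.7% were called higher in the same order. Apart from Gfap and Vim, already described, the list holds too few genes to compare with these shares.

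The secreted proteins divided. Serpina3n encodes an acute-phase serine protease inhibitor and showed the largest fold change of the 10 genes in TDP-PBS. Its lowest, median and highest levels were 10.6, 15.2 and 22.3 CPM in ctrl-PBS, 33.3, 56.3 and 97.7 CPM in TDP-PBS, 24.6, 41.3 and 266 CPM in TDP-10+12, and 26.8, 61.5 and 189.7 CPM in TDP-15. No rNLS8 mouse reached down into the control range. Its fold change against ctrl-PBS was 3.76 for TDP-PBS (log2 1.91, standard error 0.26, adjusted p = 2.25e-08, edgeR), 3.90 in TDP-10+12 (log2 1.96, adjusted p = 1.25e-08) and 4.15 in TDP-15 (log2 2.05, adjusted p = 1.15e-09). Without mouse 301 the log2 value for TDP-10+12 was 1.37, and without mouse 126, the highest of TDP-15, that for TDP-15 was 1.80. Sequences of the Serpina3 family are alike, and the counting method is not stated in enough detail to say how shared reads were assigned.

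Timp1 encodes an inhibitor of matrix metalloproteinases and is among the genes most strongly induced in astrocytes after injury, but it was rare here. Its lowest, median and highest levels were 0.052, 0.30 and 1.10 CPM in ctrl-PBS, where 4 mice had at most 3 counts, and 0.29, 0.74 and 1.62 CPM in TDP-PBS. In TDP-10+12 they were 0.29, 0.55 and 11.5 CPM, and in TDP-15 0.21, 0.59 and 3.45 CPM. Only 8 of the 32 rNLS8 values exceeded the control range, and the medians of the immunized groups were under that of TDP-PBS although the mean of TDP-10+12, 1.75 CPM, was above it. On the log2 scale it rose by 1.30 in TDP-PBS (standard error 0.50, adjusted p = 0.0297), 2.31 in TDP-10+12 (adjusted p = 5.83e-05) and 1.34 in TDP-15 (adjusted p = 0.0166). The size of the rise and 2 of the 3 calls depended on single mice. Without mouse 301 the TDP-10+12 value was 0.93 (adjusted p = 0.0435) and stayed past the threshold, without mouse 126 the TDP-15 value was 0.91 (adjusted p = 0.109), and without mouse 26 the TDP-PBS value was 1.16 (adjusted p = 0.0627).

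Lcn2, the gene of the iron-siderophore binding lipocalin-2, did not separate the groups. It ranged from 0.56 to 9.70 CPM in ctrl-PBS with a median of 1.54, and from 0.77 to 9.77 CPM in TDP-PBS with a median of 3.53. In TDP-10+12 the range was 1.35 to 5.34 CPM with a median of 2.65, and in TDP-15 0.35 to 7.40 CPM with a median of 2.21. The groups overlapped almost fully, with 1 of 32 rNLS8 mice above every ctrl-PBS mouse. The log2 fold change was 0.75 in TDP-PBS (95% interval −0.079 to 1.58, adjusted p = 0.140, edgeR), 0.20 in TDP-10+12 (−0.66 to 1.05) and 0.018 in TDP-15 (−0.80 to 0.84). The ctrl-PBS mouse with the most Lcn2, mouse 137, and the TDP-PBS mouse with the most Lcn2, mouse 26, also had the highest sums of 8 neutrophil genes in their groups, 57.0 and 20.9 CPM, beside group medians of 1.19 and 2.33 CPM. Without mouse 137 the TDP-PBS difference was 1.05 (adjusted p = 0.0286), and without mouse 26 it was 0.54 (adjusted p = 0.327). Of the neutrophil genes 5 had a median of at most 3 counts in ctrl-PBS and 3 in TDP-PBS, Ly6g a median of 0 in all groups, and their part in the Lcn2 levels was not tested.

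Among the receptors, Cd44 encodes the hyaluronan receptor of the cell surface. It ranged from 1.81 to 5.72 CPM in ctrl-PBS with a median of 3.84, from 6.58 to 16.8 CPM in TDP-PBS, from 6.78 to 46.6 CPM in TDP-10+12 and from 6.10 to 21.7 CPM in TDP-15. All 32 rNLS8 mice exceeded every ctrl-PBS mouse, and the group medians of 10.2, 9.86 and 9.66 CPM were close to each other. The log2 fold changes were 1.47 (standard error 0.22, adjusted p = 2.60e-07), 1.80 (adjusted p = 2.01e-09) and 1.53 (adjusted p = 3.18e-08), and the value for TDP-10+12 was 1.34 without mouse 301. Osmr, the oncostatin M receptor subunit that signals with gp130, ranged from 2.57 to 6.35 CPM in ctrl-PBS with a median of 4.03. Its medians were 8.63, 7.21 and 7.66 CPM in TDP-PBS, TDP-10+12 and TDP-15, and 25 of 32 rNLS8 values exceeded the control range. The groups thus overlapped in part. Against ctrl-PBS the level was 2.04 times as high in TDP-PBS (log2 1.03, standard error 0.15, adjusted p = 1.67e-07), 2.02 in TDP-10+12 (adjusted p = 2.51e-07) and 1.92 in TDP-15 (adjusted p = 3.57e-07). On the log2 scale the TDP-10+12 value was 1.02, and 0.89 without mouse 301.

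Stat3, the transcription factor downstream of Osmr and the other IL-6 family receptors, changed least of the 7 genes. Its log2 level had the smallest SD of the 7 in each group. Its levels lay between 38.0 and 47.5 CPM in ctrl-PBS with a median of 44.6, and its medians were 63.5, 60.1 and 62.5 CPM in the rNLS8 groups. The SD of its log2 level in ctrl-PBS was 0.084, the smallest of the 9 genes with counts in every mouse, and 31 of 32 rNLS8 mice lay above the control range. The log2 fold changes were 0.52 (standard error 0.079, adjusted p = 3.39e-07), 0.51 (adjusted p = 4.93e-07) and 0.54 (adjusted p = 3.89e-08). The TDP-10+12 value was 0.40 without mouse 301.

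Aqp4 (chromosome 18, 15389394 to 15410982) did not follow. It ranged from 58.6 to 98.1 CPM in ctrl-PBS with a median of 78.9, and its medians were 76.2, 76.8 and 74.2 CPM in TDP-PBS, TDP-10+12 and TDP-15. The ranges overlapped almost completely, with 4 of 32 rNLS8 mice above every ctrl-PBS mouse. The log2 fold change was 0.023 in TDP-PBS (95% interval −0.17 to 0.22, adjusted p = 0.870), 0.14 in TDP-10+12 (−0.054 to 0.34) and 0.021 in TDP-15 (−0.16 to 0.21). A change as large as that of Stat3 in the same group therefore lay outside each interval. For Aqp4 in TDP-10+12 the value was 0.041 without mouse 301. Of the 9 genes of the AQP4 endfoot complex 2 fell in TDP-PBS, Dtna for α-dystrobrevin (−0.26, adjusted p = 4.65e-08) and Dag1 for dystroglycan (−0.13, adjusted p = 0.00375). In each of the immunized groups 2 of these 9 genes fell, a share close to that of all genes called lower, which is given with the homeostatic genes.

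Steap4, a metalloreductase gene listed among pan-reactive astrocyte genes, was at the limit of detection. Counts lay between 0 and 12 per mouse, 2 ctrl-PBS mice and 1 TDP-PBS mouse had none, and 8 of 17 ctrl-PBS and 10 of 32 rNLS8 mice were at or under 3 counts. Its medians were 0.20 CPM in ctrl-PBS and 0.28, 0.27 and 0.34 CPM in the rNLS8 groups, and 2 of 32 rNLS8 values exceeded the control range. In an edgeR fit without the filter its log2 differences from ctrl-PBS were 0.18, 0.48 and 0.68, with adjusted p = 0.839, 0.469 and 0.208, so a difference was not detectable at this depth.

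**Figure D2:**
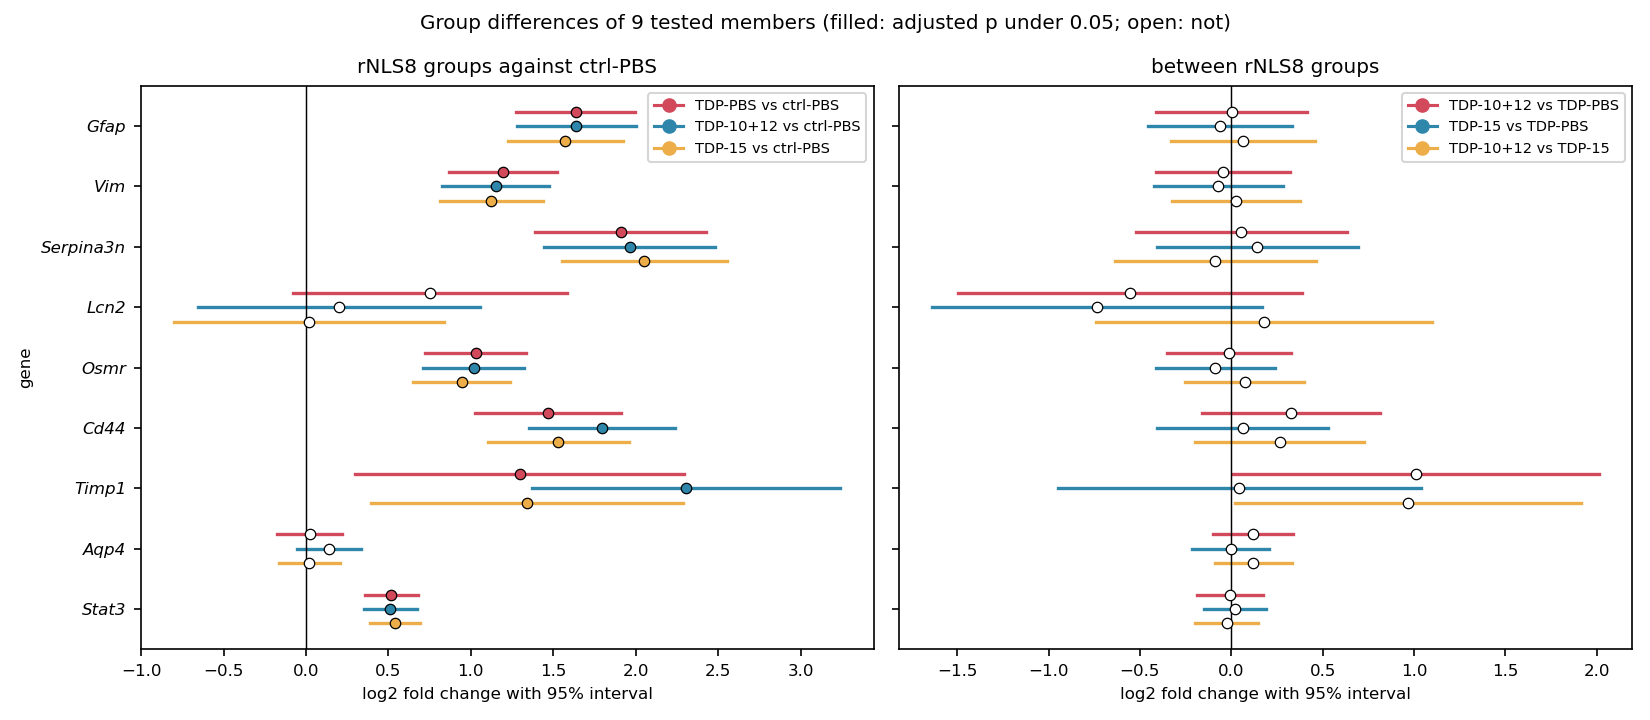
Log2 fold change (horizontal axis) of the 9 tested genes (vertical axis) with 95% intervals, for the 3 rNLS8 groups against ctrl-PBS on the left and between rNLS8 groups on the right; filled points had an adjusted p under 0.05. The 7 genes that rose have intervals above 0 in all 3 left-hand comparisons, and 0 genes are called on the right.

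Other reactive astrocyte genes gave a wider picture of the state. Their counts stand beside 21.9% of all genes called higher in TDP-PBS, 20.8% in TDP-10+12 and 23.7% in TDP-15. All 5 of the other pan-reactive genes rose in TDP-PBS, with the largest change in Cxcl10, a chemokine gene (log2 fold change 5.66, adjusted p = 3.34e-16), then Aspg (0.99, adjusted p = 1.27e-05) and Hspb1, a small heat shock protein gene (0.66, adjusted p = 0.0456). Cxcl10 was tested because of the rNLS8 mice, all 32 of which reached the filter's threshold against 1 of 17 ctrl-PBS mice, and at 0.13 ± 0.15 CPM in ctrl-PBS (SD, n = 17) its fold change is no precise value. In TDP-10+12 all 5 rose and in TDP-15 4. Without mouse 301 4 of the 5 were called in TDP-10+12, Hspb1 being lost (0.24, adjusted p = 0.395), and their median log2 fold change went from 0.89 to 0.41. Of the 11 tested genes of the set called A1, first described after inflammatory stimulation, 10 rose in TDP-PBS, 8 in TDP-10+12 and 9 in TDP-15, and 0 fell. The largest were Psmb8, an immunoproteasome subunit (1.81, adjusted p = 8.96e-10), Iigp1, an interferon-inducible GTPase (1.66, adjusted p = 6.68e-07) and H2-D1, an MHC class I gene (1.61, adjusted p = 0.00392). Many of this set are interferon-inducible in most cell types, and H2-D1 shares sequence with other H2 genes. H2-D1 also varied widely between mice, with 39.1 ± 31.1 CPM in ctrl-PBS and 119.6 ± 86.5 CPM in TDP-PBS (SD). The part of the mixed strain in its levels was not tested. Of the 10 tested genes of the A2 set, first described after ischemia, 4 rose in TDP-PBS, namely Tgm1, a transglutaminase (2.09, adjusted p = 7.45e-04) that passed the filter through the rNLS8 mice (1 of 17 ctrl-PBS mice at the threshold), Cd109 (1.02, adjusted p = 1.69e-05), Cd14, the co-receptor for lipopolysaccharide, which myeloid cells also express (0.99, adjusted p = 8.60e-06), and S100a10 (0.21, adjusted p = 0.0383), and 0 fell. The A2 set had 6 rises in TDP-10+12, 4 without mouse 301, and 5 rises with 1 fall in TDP-15. Without mouse 301 the calls of Clcf1 (0.45, adjusted p = 0.123) and Emp1 (0.16, adjusted p = 0.560) were lost. The median log2 fold change in TDP-PBS was 0.66, 1.01 and 0.30 over the pan-reactive, A1 and A2 genes. With 10 genes tested, the A2 counts stand less clearly apart from the shares of all genes than the A1 counts.

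Most homeostatic astrocyte genes did not pass the test in TDP-PBS and TDP-10+12. Over all genes 21.6% were called lower in TDP-PBS, 20.0% in TDP-10+12 and 23.2% in TDP-15. Of the 18 homeostatic genes, 1 rose and 6 fell in TDP-PBS, 0 rose and 5 fell in TDP-10+12, and 0 rose and 9 fell in TDP-15. The share that fell in TDP-PBS and TDP-10+12 was not far from that of all genes. In TDP-15 it was higher than that of all genes, with 8 falling without mouse 126. The largest falls in TDP-PBS were in Slc1a2, the main glutamate transporter (−0.35, adjusted p = 7.01e-05), Cldn10 (−0.35, adjusted p = 4.11e-04) and Gja1, the gap junction gene for connexin 43 (−0.29, adjusted p = 0.00283), and Gjb6, for connexin 30, was the gene that rose (0.24, adjusted p = 0.0405). These falls were small beside the rises of Gfap and Serpina3n.

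The pathway upstream of Stat3 was described through 21 genes of the IL-6 family and JAK-STAT3 signalling, of which 17 were tested. In TDP-PBS 6 rose, Osmr and Stat3 among them, and 2 fell. Over all genes 21.9% were called higher and 21.6% lower, so the list's share of rises was not far above that of all genes. Among the ligands, Lif rose from 0.59 ± 0.18 (SD, n = 17) to 1.05 ± 0.43 CPM (SD, n = 10), a log2 fold change of 0.83 (adjusted p = 0.00438), Clcf1 had a log2 difference of 0.40 (adjusted p = 0.164) and Ctf1 one of 0.078 (adjusted p = 0.728). Il6, Osm, Cntf and Il11 were too low to be tested, with mean levels of at most 0.37 CPM in ctrl-PBS and TDP-PBS. Osm, the ligand of the Osmr receptor, had 0.14 ± 0.15 CPM in ctrl-PBS and 0.28 ± 0.10 CPM in TDP-PBS.

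Among the receptors of the family, Osmr had the largest rise. Il6st, the gene of the shared signal transducer gp130, rose by 0.31 on the log2 scale (adjusted p = 6.48e-06) and Il6ra by 0.31 (adjusted p = 0.0254). Lifr fell by 0.16 (adjusted p = 0.0302) and Il11ra1 by 0.24 (adjusted p = 0.00193), and Cntfr, with a difference of 0.10, did not pass the test (adjusted p = 0.244). The kinases Jak1 (−0.066), Jak2 (−0.14) and Tyk2 (−0.016) did not pass the test in TDP-PBS. Of the regulators Pias3 rose by 0.15 (adjusted p = 0.0134), while Socs3, a feedback inhibitor induced by STAT3, had a difference of −0.060 (95% interval −0.46 to 0.34, adjusted p = 0.833), Socs1 one of 0.39 (adjusted p = 0.182) and Ptpn11 one of −0.012 (adjusted p = 0.835). In TDP-10+12 7 genes of the pathway rose and 3 fell, and in TDP-15 7 rose and 2 fell, with Clcf1 called in both (0.56, adjusted p = 0.0447, and 0.74, adjusted p = 0.00395) and Jak2 lower in both (−0.17, adjusted p = 0.0462, and −0.18, adjusted p = 0.0180). Without mouse 301 the TDP-10+12 counts were 5 and 2, and the call of Clcf1 was lost, as given above.

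**Figure D3:**
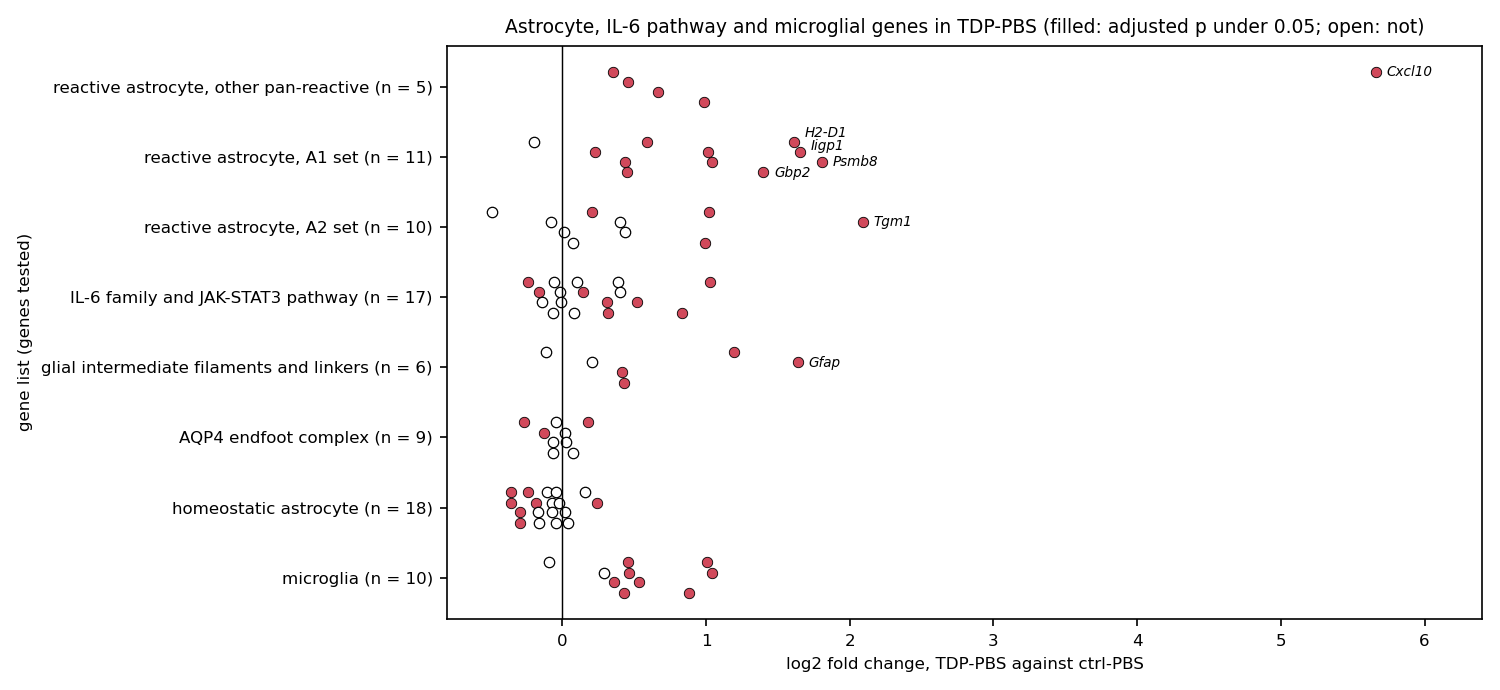
Log2 fold change in TDP-PBS against ctrl-PBS (horizontal axis) of each tested gene in 8 gene lists (vertical axis); each point is 1 gene, filled where the adjusted p was under 0.05, and the genes with the largest changes are named. The pan-reactive, A1 and microglial genes lie mostly to the right of 0, and the homeostatic astrocyte and AQP4 endfoot genes lie close to 0.

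Markers of some other cells moved as well, in a comparison where 21.9% of all genes were called higher and 21.6% lower in TDP-PBS. Of 10 microglial genes, 8 rose and 0 fell in TDP-PBS, and 8 rose and 1 fell in each of TDP-10+12 and TDP-15, with the largest in TDP-PBS in Cd68 (1.04), Tyrobp (1.01) and Trem2 (0.88). The sum of the 10 ranged from 262 to 305 CPM in ctrl-PBS, from 342 to 468 CPM in TDP-PBS, from 272 to 434 CPM in TDP-10+12 and from 284 to 575 CPM in TDP-15. Of 8 meningeal fibroblast genes 4 rose in TDP-PBS, and their sum ranged from 346 to 723 CPM in ctrl-PBS and from 440 to 1277 CPM in the rNLS8 mice. Of 7 neuronal genes 4 fell in TDP-PBS, led by Snap25 (−0.68). Of 10 endothelial genes 1 rose and 1 fell in TDP-PBS, of 8 mural genes 1 and 1, of 4 tested ependymal genes 1 and 0, of 2 tested T cell genes 1 and 1, and of 6 oligodendrocyte, 5 oligodendrocyte precursor, 4 choroid plexus and 2 neutrophil genes tested 0. The endothelial and mural counts in TDP-PBS were under the shares of all genes. The ependymal, T cell, choroid plexus and neutrophil lists held too few tested genes to compare with them. In the immunized groups 3 and 1 of the choroid plexus genes rose, and 1 and 2 of the neutrophil genes fell. The part of these cells in the levels of Vim, Cd44, Stat3, Timp1 and Lcn2 was not tested.

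The immunized groups were compared with TDP-PBS to ask whether the peptides altered the astrocyte genes. Of the 9 tested genes 0 changed in TDP-10+12 against TDP-PBS, 0 in TDP-15 against TDP-PBS and 0 in TDP-10+12 against TDP-15. In each of the 3 comparisons 0.0% of all 18220 genes were called (edgeR, adjusted p under 0.05). In the same test 952, 552 and 1244 genes had an unadjusted p under 0.05, and of the 9 genes 1, 0 and 1 did. Fits with limma-voom with quality weights and with DESeq2 likewise called 0 of the 9. Gfap differed by 0.0022 on the log2 scale in TDP-10+12 (95% interval −0.41 to 0.42) and by −0.063 in TDP-15 (−0.46 to 0.33). Serpina3n differed by 0.055 (−0.52 to 0.63) and 0.14 (−0.41 to 0.69), and Stat3 by −0.0059 (−0.19 to 0.17) and 0.020 (−0.15 to 0.19). For Gfap, Vim, Serpina3n, Osmr, Cd44 and Stat3 a difference as large as that between TDP-PBS and ctrl-PBS was outside the interval. For Lcn2, with −0.55 (−1.49 to 0.39) and −0.73 (−1.64 to 0.17), and for Timp1 in TDP-10+12, with the interval given next, a difference of that size lay inside. Timp1 had the smallest unadjusted p, 0.0477 in TDP-10+12 against TDP-PBS with a difference of 1.01 (0.011 to 2.01, adjusted p = 0.953), and 0.0451 in TDP-10+12 against TDP-15 (adjusted p = 0.721).

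Mouse 301 set the sign of the difference between TDP-10+12 and TDP-PBS for 4 of the 9 genes. With it left out the differences were −0.35 for Gfap, −0.55 for Serpina3n, −0.14 for Cd44 and −0.38 for Timp1, which were above 0 with it. Vim (−0.28 without it) and Stat3 (−0.13 without it) were under 0 either way, and 0 of the 9 genes was called with or without it. Its levels were 1132 CPM for Gfap, 266 CPM for Serpina3n, 46.6 CPM for Cd44 and 11.5 CPM for Timp1, which is 3.85, 6.89, 5.14 and 21.1 times the median of the other 9 TDP-10+12 mice. Lcn2, at 5.34 CPM, ranked 6 of 32, and Steap4, at 0.30 CPM, ranked 16 of 32. In the same mouse the sum of the A2 genes was 85.6 CPM, the highest of the rNLS8 mice, while that of the A1 genes, 181 CPM, ranked 20 of 32. Such sums lean on the genes with the highest levels, and some of these varied widely between TDP-10+12 mice. H2-D1 of the A1 set had 66.6 ± 62.3 CPM and Ptgs2 of the A2 set 9.12 ± 9.74 CPM (SD, n = 10). The part of single genes in the sums of mouse 301 was not tested. The sum of its microglial genes, 434 CPM, ranked 7 of 32, its neuronal sum of 5303 CPM ranked 16, and its meningeal sum of 440 CPM was the lowest of the 32. Mouse 126 of TDP-15 was next, ranking 2 of 32 for Vim, Serpina3n, Osmr, Cd44, Timp1, Steap4, Aqp4 and Stat3, and it had the highest microglial sum of all rNLS8 mice, 575 CPM.

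Females and males were compared within the rNLS8 mice. Of the 9 genes 0 differed (over all genes 0.0823%, or 15 genes, were called), and 0 had a genotype effect that differed between the sexes (0.0% of all genes). At an unadjusted p under 0.05 each test gave 1 of the 9, Timp1, beside 668 and 674 of all genes. Mean Timp1 was 0.68 CPM in rNLS8 females and 1.57 CPM in rNLS8 males, a log2 difference of females minus males of −1.13 (standard error 0.37, unadjusted p = 0.0041, edgeR over all genes). Mice 301 and 126, the highest at 11.5 and 3.45 CPM, were both male, so the male mean leans on them. The sex difference without them was not computed. With sex as a covariate the Timp1 rise in TDP-PBS was 1.12 (adjusted p = 0.0588).

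Covariation was examined in the 32 rNLS8 mice, after the mean of each treatment group was subtracted, so that differences between groups do not enter. Most of the 9 genes varied together from mouse to mouse. All 36 pairs had a positive Pearson's r, from 0.29 for Lcn2 and Aqp4 to 0.91 for Vim and Serpina3n, and 28 of 36 were called (adjusted p under 0.05 in the families of both genes, each gene against 18219 others, permutation test within groups). A core of Gfap, Vim and Serpina3n was tightest. Gfap and Serpina3n had r = 0.90 (p = 1e-05, the smallest the 100000 permutations can give; rho = 0.82, p = 1e-05), Gfap and Vim r = 0.88 (rho = 0.80) and Vim and Serpina3n r = 0.91 (rho = 0.83), with the same p for each of these permutation tests. Without the 2 mice farthest from the median of the first gene of each pair, r was 0.82, 0.82 and 0.84, so the relation held in these 3 pairs without the extreme mice.

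The single-gene background puts these pairs in context. The share of all genes called with each member was 2.4% for Gfap, 3.92% for Vim, 3.66% for Serpina3n, 0.379% for Lcn2, 3.21% for Osmr, 0.823% for Cd44, 1.61% for Timp1, 2.49% for Aqp4 and 3.69% for Stat3. Stat3 correlated with Serpina3n (r = 0.86, rho = 0.67) and Vim (r = 0.83, rho = 0.69) and with Osmr, its upstream receptor (r = 0.80, permutation p = 1e-05; rho = 0.71, permutation p = 3e-05). Timp1 was nearest to Serpina3n (r = 0.87, rho = 0.72, and r = 0.66 without the 2 farthest mice). Of the 18219 genes none had a higher r with Timp1 over all rNLS8 mice. Aqp4, whose mean did not differ between genotypes, varied with Osmr (r = 0.78, permutation p = 1e-05; rho = 0.78, permutation p = 1e-05) and with Gfap (r = 0.73, rho = 0.66). Lcn2 was the loosest: only its pairs with Vim (r = 0.63) and Timp1 (r = 0.53) were called, of 8.

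**Figure D4:**
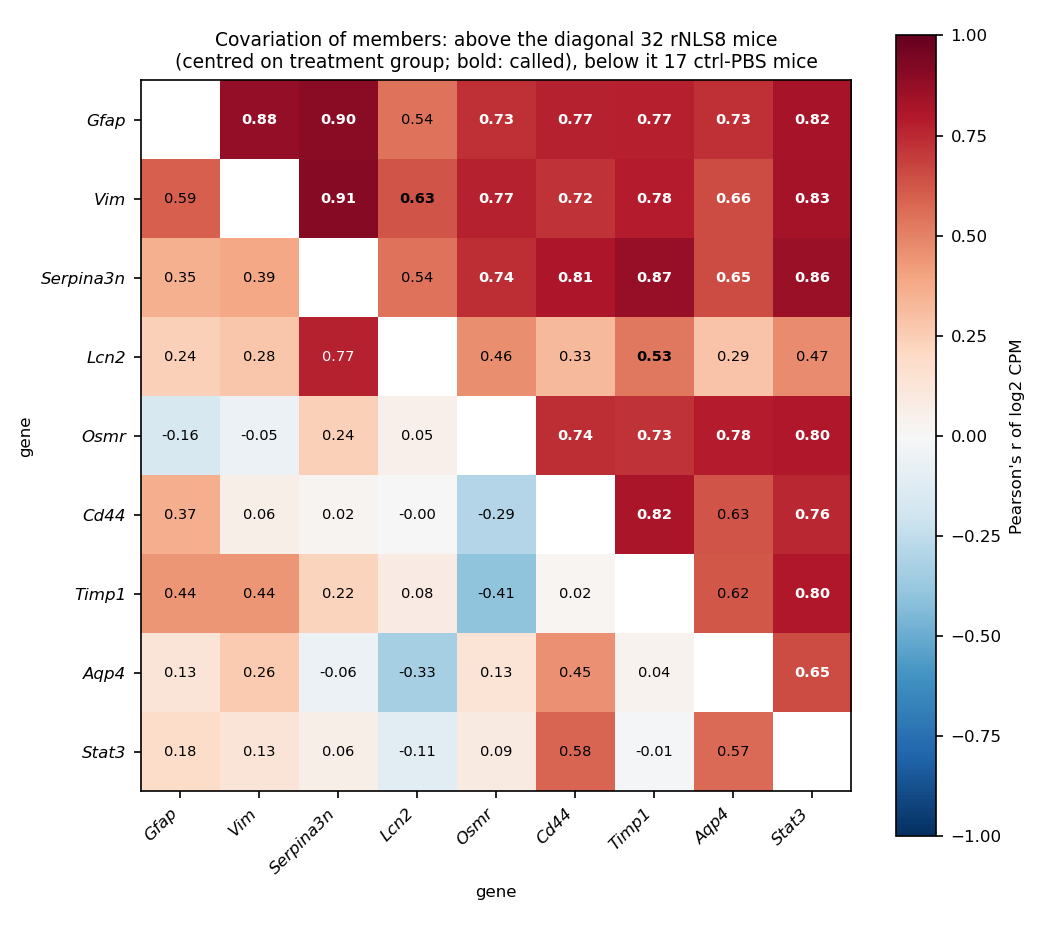
Pearson's r of log2 CPM for each pair of the 9 genes (both axes), with 32 rNLS8 mice centred on treatment group above the diagonal and 17 ctrl-PBS mice below it; bold values were called. Values above the diagonal are all positive and highest among Gfap, Vim and Serpina3n, while those below it are lower for all pairs except Serpina3n with Lcn2.

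How many pairs are called depends on a few mice. Without mouse 301, 16 of 36 pairs were called, without mouse 126 also 16, with Spearman's rho 13, and without the 2 mice farthest from the median of the first gene 7. The 7 were Gfap with Vim, Gfap with Serpina3n, Vim with Serpina3n, Vim with Stat3, Serpina3n with Stat3, Osmr with Stat3 and Osmr with Aqp4. The pair of Serpina3n and Aqp4, in contrast, went from r = 0.65 to 0.34 without the 2 mice, and that of Aqp4 and Stat3 from 0.65 to 0.32, so they rest on those mice.

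In the 17 ctrl-PBS mice the same pairs were looser. Gfap and Vim had r = 0.59 (adjusted p = 0.657), Gfap and Serpina3n 0.35, Vim and Serpina3n 0.39, and Osmr and Stat3 0.086, and 0 of 36 pairs had an adjusted p under 0.05 in the permutation test. The highest was Serpina3n and Lcn2 with r = 0.77 (p = 3.40e-04, adjusted p = 0.425). The ctrl-PBS mice are fewer, and their log2 levels vary less except for Lcn2 (SD 1.26 in ctrl-PBS, 1.14 over all rNLS8 mice). The difference in r between genotypes was not tested.

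**Figure D5:**
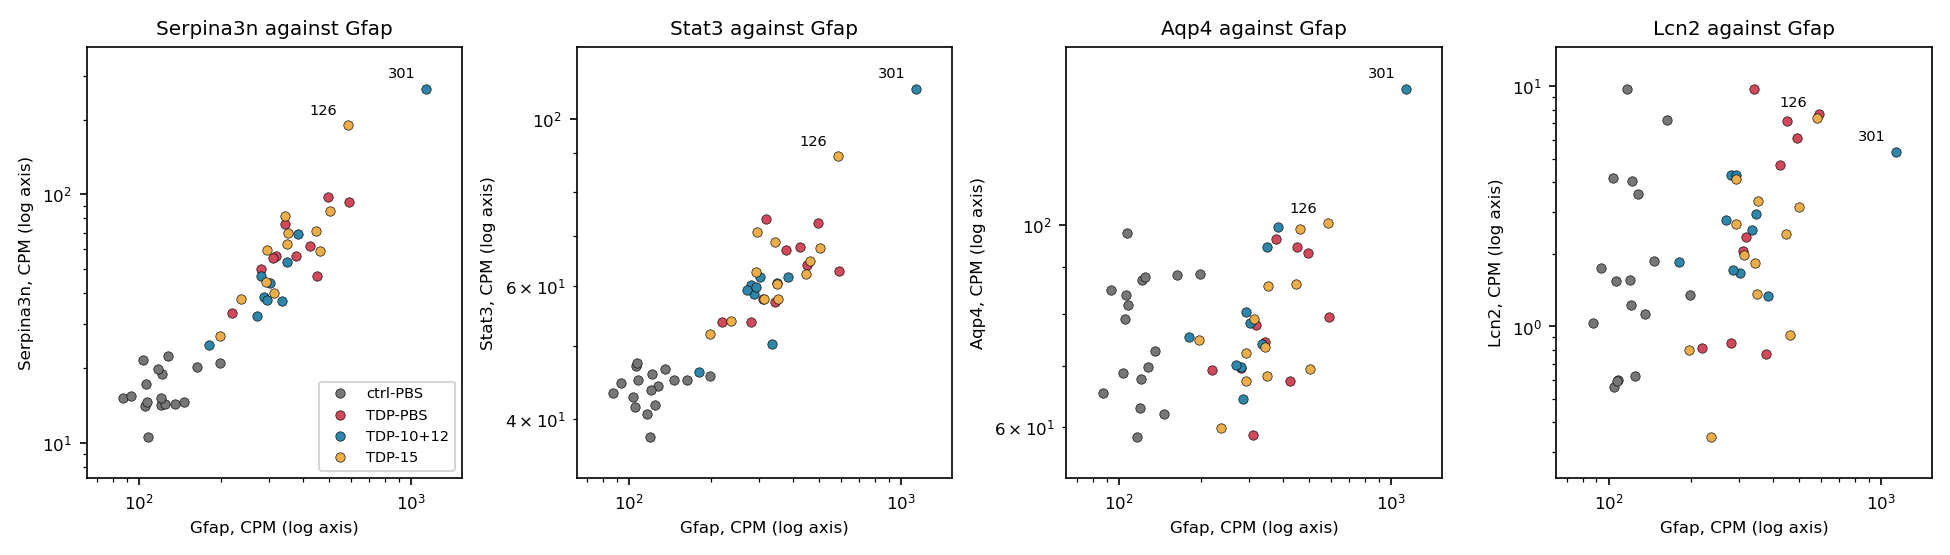
Serpina3n, Stat3, Aqp4 and Lcn2 (vertical axes) against Gfap (horizontal axis) in CPM on log axes, 1 point per mouse, coloured by group, with mice 301 and 126 named. Serpina3n follows Gfap throughout the rNLS8 mice (r = 0.90), Aqp4 follows it less closely (r = 0.73) at levels that mostly overlap those of ctrl-PBS, and Lcn2 is scattered.

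Over the whole table, the genes most like Gfap in the rNLS8 mice were Msn, for the membrane linker moesin (r = 0.93), Hspb6, for a small heat shock protein (r = 0.92), Serpina3n (r = 0.90), Pdlim4, for an actin-associated LIM protein (r = 0.89), and Vim (r = 0.88), all with permutation p = 1e-05. The most negative were Klhl22 (r = −0.76), Zscan18 (r = −0.76) and Tmem74b (r = −0.74). The gene most like each other member was Lgals1, for galectin-1, with Vim (r = 0.93), Hspb6 with Serpina3n (r = 0.93) and with Cd44 (r = 0.86), Tgm2, a transglutaminase, with Lcn2 (r = 0.82), Cd151, a tetraspanin, with Osmr (r = 0.86), Ednrb, the endothelin B receptor, with Aqp4 (r = 0.81), and Tmbim1 with Stat3 (r = 0.89). Without the 2 farthest mice, r with Gfap was 0.86 for Msn, 0.84 for Hspb6 and 0.77 for Pdlim4. It was −0.64 for Klhl22, −0.60 for Zscan18 and −0.51 for Tmem74b. Hspb6 with Cd44 had 0.66, and the pairs of the remaining members named here had from 0.80 (Ednrb with Aqp4) to 0.88 (Lgals1 with Vim). In ctrl-PBS the r of Gfap with Msn was 0.25 and with Hspb6 0.11. Among the lists, Gfap varied with 4 of the 5 other pan-reactive genes, 5 of 10 microglial genes, 2 of 10 A2 genes, 0 of 11 A1 genes and 3 of 18 homeostatic genes, all positively. Over all 18219 genes 2.4% were called with Gfap, 366 positively and 71 negatively. Its median r was 0.75 with the pan-reactive, 0.61 with the microglial, 0.45 with the A2, 0.34 with the A1 and 0.13 with the homeostatic astrocyte genes. These counts and medians are from all rNLS8 mice, mouse 301 among them.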

How the data were processed

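RNA from the cerebral cortex (neocortical tissue, in the study's methods) was sequenced as paired 100 bp reads. The authors deposited 1 table of raw counts per gene and mouse. The submitters' processing notes name HISAT, HISAT2, Bowtie, Bowtie2 and RSEM and the genome builds GRCm38.p6 and mm10, and their roles, the annotation and the strand setting are not given in the sources used here. The mice are separate animals, grouped by the labelled group, and no batch is labelled. No pair of libraries in a group agreed within sampling noise (smallest chi-square per degree of freedom 7.24).

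Genes were kept with filterByExpr (minimum count 10, minimum total count 15), which left 18220 of 45252, 6073 having no count. Counts were scaled by TMM and fitted over all 49 mice with edgeR's quasi-likelihood test (edgeR 4.0.16, R 4.3.3), with Benjamini-Hochberg adjustment over all genes and a threshold of 0.05. On simulated data for TDP-PBS against ctrl-PBS (18057 genes), 78.8%, 90.8% and 97% of genes changed by 0.5, 1 and 1.5 on the log2 scale were recovered. Only 66, 65 and 67 genes were changed by these amounts, whereas 7928 of 18220 were called in the real comparison. No simulated mouse stood apart over many genes, so these shares do not measure the power in the real data. Correlations used log2 CPM with a prior count of 2, centred on treatment group, with 100000 permutations within groups (numpy 2.4.6). Alternatives were other scalings and filters, sex as a covariate, only the compared groups, limma-voom with quality weights (limma 3.58.1), DESeq2 1.42.0 and each mouse left out. The counts of list genes without mice 301 and 126 were added after seeing the data. Limits at low counts cover counting error only. The genes and lists were chosen with earlier results of these data known. From each list up to 3 called genes with the largest changes in each direction were named, besides all genes of the IL-6 pathway, the 5 highest and 3 lowest correlations with Gfap, and the highest with each other gene. One result of the AQP4 endfoot list is not reported here.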

Additional observations from a re-analysis of the deposited data

Results flagged for a closer look

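In TDP-10+12 the highest mouse stood apart from the other 9 by Dixon's test for 7 of the 10 genes, and in each case it was mouse 301, a male. Its levels were 1132 CPM for Gfap, 158 CPM for Vim, 266 CPM for Serpina3n, 46.6 CPM for Cd44, 11.5 CPM for Timp1, 141 CPM for Aqp4 and 109.6 CPM for Stat3. The test was run on the 10 genes in TDP-PBS and in TDP-10+12, 20 checks in all, of which TDP-PBS gave none. Chance flags about 1 in 20 such groups, and the 7 flags are 1 mouse and genes that vary together, so they are not independent. The larger groups, ctrl-PBS and TDP-15, were not tested.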

How the results depend on the processing

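The number of the 9 genes called against ctrl-PBS stayed at 6 to 8 in TDP-PBS, 7 in TDP-10+12 and 6 to 7 in TDP-15 when single mice were left out, and was 0 between rNLS8 groups in every alternative run. Beside the 28 pairs called, 13 were called with Spearman's rho, 7 without the 2 farthest mice, 16 without mouse 301 and 16 without mouse 126. The limma-voom fit used quality weights, which let more variable libraries count less. With it, Aqp4 in TDP-PBS against ctrl-PBS was −0.013. In TDP-10+12 against TDP-PBS limma-voom gave −0.22 for Gfap, −0.43 for Serpina3n, 0.048 for Lcn2, −0.026 for Cd44 and −0.13 for Timp1, DESeq2 −0.41 for Timp1 and upper-quartile scaling −0.0052 for Gfap. In TDP-15 against TDP-PBS limma-voom gave −0.13 for Timp1 and 0.021 for Aqp4. In TDP-10+12 against TDP-15 it gave −0.15 for Gfap, −0.11 for Vim, −0.0055 for Osmr, −0.026 for Cd44 and −0.0033 for Timp1. The cause was not tested.

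Leaving out single mice turned the sign of differences that did not pass the test. Against ctrl-PBS, Aqp4 ran from −0.0036 to 0.073 in TDP-PBS and from −0.017 to 0.051 in TDP-15, and Lcn2 from −0.26 to 0.31 in TDP-15. In TDP-10+12 against TDP-PBS the ranges were −0.35 to 0.094 for Gfap, −0.28 to 0.043 for Vim, −0.55 to 0.15 for Serpina3n, −0.15 to 0.049 for Osmr, −0.14 to 0.42 for Cd44, −0.38 to 1.15 for Timp1 and −0.13 to 0.036 for Stat3. In TDP-15 against TDP-PBS they were −0.14 to 0.029 for Gfap, −0.21 to 0.015 for Vim, −0.11 to 0.23 for Serpina3n, −0.067 to 0.16 for Cd44, −0.38 to 0.19 for Timp1, −0.042 to 0.035 for Aqp4 and −0.032 to 0.047 for Stat3. In TDP-10+12 against TDP-15 they were −0.29 to 0.15 for Gfap, −0.21 to 0.17 for Vim, −0.69 to 0.16 for Serpina3n, −0.064 to 0.20 for Osmr, −0.20 to 0.39 for Cd44, −0.42 to 1.39 for Timp1 and −0.15 to 0.027 for Stat3. No paired analysis was possible because every mouse is a separate animal. Depth limits Steap4 and Timp1.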
